A study of Mus musculus with 8 samples.

Results

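The nuclear genes for subunits of the mitochondrial respiratory chain were followed through an LPS response in mouse macrophages. Members were the genes whose symbol on the array began with Ndufa, Ndufb, Ndufc, Ndufs, Ndufv, Sdh, Uqcr, Cox4 to Cox8 or Atp5, without the assembly factors named Ndufaf and Sdhaf. Only probe sets annotated to 1 gene were used, and where a gene had several, the probe set with the highest average signal stood for it. This gave 82 of 18193 genes on the array, which comprised 35 genes of complex I, 4 of complex II, 8 of complex III, 18 of complex IV and 17 of complex V (ATP synthase). Values were high enough to test for 80 members, and 74 lay above background on all 8 arrays. Cox7b2 and Cox8b were not tested because they were near background throughout.

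The series holds peritoneal macrophages from mice labelled Zc3h12a-/- and from wild-type mice, each stimulated with 100 ng/ml LPS for 0, 1, 2 or 4 h. The product of Zc3h12a, Regnase-1, is an RNase with inflammatory mRNAs among its targets, and LPS is a component of the bacterial outer membrane that TLR4 detects. All mice had received thioglycollate, which irritates the peritoneal cavity so that macrophages gather there. Each genotype and time had 1 array, 8 in all, so no group had a replicate, and the labels do not say how many mice or cell pools stood behind an array. The genetic background, sex and age were not given in the sources used here.

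Complexes I and II pass electrons from NADH and succinate to coenzyme Q, complex III hands them on to cytochrome c, and complex IV delivers them to oxygen. The proton gradient that complexes I, III and IV build drives ATP synthase. In macrophages, LPS is known to shift energy metabolism towards glycolysis, and succinate dehydrogenase, which is both complex II and an enzyme of the TCA cycle, is known for its part in inflammatory signalling.

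Promoters of the members are shown here because these genes are known to share binding sites for NRF1 and for ETS factors such as GABP. Windows of 300 bases, 250 before and 50 after the start of transcription, came from RefSeq on GRCm38.p6, and 65 of the 80 tested members had one. The windows below belong to the 4 members of smallest p that were lower at 4 h of LPS and held an NRF1 core (GCGC, any base, then TGCGC) or an ETS core (CCGGAAG) on either strand. Capitals mark those cores. Ndufs8 lies at chr19:3912725-3913024 on the minus strand, Sdha at chr13:74350191-74350490 on the minus strand, Sdhb at chr4:140961021-140961320 on the plus strand and Ndufa8 at chr2:36049289-36049588 on the minus strand.
Ndufs8: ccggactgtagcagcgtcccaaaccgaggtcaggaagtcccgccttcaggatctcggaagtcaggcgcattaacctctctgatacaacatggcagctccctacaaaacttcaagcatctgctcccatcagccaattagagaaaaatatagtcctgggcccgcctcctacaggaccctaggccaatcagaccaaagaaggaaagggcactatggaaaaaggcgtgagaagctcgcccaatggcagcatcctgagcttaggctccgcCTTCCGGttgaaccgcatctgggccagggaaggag
Sdha: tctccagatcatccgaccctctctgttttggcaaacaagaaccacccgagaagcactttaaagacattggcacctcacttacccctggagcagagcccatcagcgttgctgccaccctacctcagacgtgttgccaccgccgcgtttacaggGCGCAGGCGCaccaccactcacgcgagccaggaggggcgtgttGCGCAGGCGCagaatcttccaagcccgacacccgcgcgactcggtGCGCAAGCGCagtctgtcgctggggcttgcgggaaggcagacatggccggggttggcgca
Sdhb: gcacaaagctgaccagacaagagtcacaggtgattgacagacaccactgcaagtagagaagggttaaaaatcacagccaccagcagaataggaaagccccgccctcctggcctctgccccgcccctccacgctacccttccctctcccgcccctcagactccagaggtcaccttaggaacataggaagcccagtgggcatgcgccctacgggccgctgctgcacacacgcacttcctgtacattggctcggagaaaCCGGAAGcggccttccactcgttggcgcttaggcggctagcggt
Ndufa8: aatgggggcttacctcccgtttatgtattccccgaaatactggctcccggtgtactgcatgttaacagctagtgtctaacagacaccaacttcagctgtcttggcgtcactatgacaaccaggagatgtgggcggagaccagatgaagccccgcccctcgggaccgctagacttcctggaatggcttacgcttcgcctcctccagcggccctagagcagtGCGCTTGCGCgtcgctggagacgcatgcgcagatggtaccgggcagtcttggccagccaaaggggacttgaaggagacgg

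The Sdha window held 3 NRF1 cores before the start, the Ndufa8 window held 1, and the ETS cores of Ndufs8 and Sdhb lay after the start. An NRF1 core was found in 21.5% of the 65 member windows and in 4.78% of the windows of all 27025 genes. For the ETS core the shares were 24.6% of member windows and 9.12% of all windows. The SP1 box GGGCGG was in 43.1% of member windows and 35.9% of all windows, and the YY1 core AAGATGG was in 13.8% and 6.48%. All were searched on both strands, and none of the motifs contains another. The median GC content was 59.0% in member windows and 52.7% in all windows. Among members with a window, 18 were lower at 4 h, and 16.7% of them held an NRF1 core, against 23.4% of the other 47. An ETS core was in 16.7% of those 18 windows and in 27.7% of the other 47. A match of letters is a description and not a measured binding site.

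The values are log2 signals after RMA, which makes the arrays' distributions alike, so a change in total mRNA cannot be read from them. Levels of different probe sets are not comparable. Any pair of arrays correlated at 0.933 to 0.988 over all probe sets. Of the macrophage markers on the array, 10 of 11 lay above background on all arrays, and Cd163 was at background. The Zc3h12a probe set that gave signal had values of 6.73, 7.70, 8.75 and 8.50 in labelled knockout over 0, 1, 2 and 4 h of LPS, against 6.12, 8.02, 8.87 and 8.57 in wild type. The other Zc3h12a probe set lay between 3.01 and 3.31 on all arrays. Their position relative to the deleted part is not known here, so they do not check the labels, and the group is called labelled knockout.

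After LPS the subunits did not move as a block. On the deposited scale, 10 members fell at 4 h whichever array was left out. Of these, 8 fell under other scalings too: Ndufs7, Ndufs8, Ndufa6, Ndufa8 and Ndufv3 of complex I, Sdha and Sdhb of complex II, and Cox7a2l, counted with complex IV. They fell by between 0.68 and 1.06 on the log2 scale, and they also passed after cyclic loess and after centring the arrays on the mean of 10 housekeeping genes or on the median of all tested genes. The other 2 were Ndufb11 and Ndufv1. Centred on the median of the housekeeping genes, none of the 8 passed the threshold, and Ndufa8 and Ndufv3 lay at 0.06 and 0.02, just above 0. No member of complex III passed the threshold at any LPS time on the deposited scale.

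In counts, 0 of 80 members rose and 21 fell at 2 h (limma, Benjamini-Hochberg adjusted p under 0.05), where 12.0% of all 12540 tested genes rose and 29.8% fell. At 4 h, 0 members rose and 19 fell, beside 14.4% and 29.4% of all genes. The share of members that fell was therefore 26.3% at 2 h and 23.8% at 4 h, both below that of all genes. Both counts moved when 1 array was left out: 5 to 17 fell at 2 h, with the lowest count without the labelled-knockout 0 h or 2 h array, and 11 to 19 fell at 4 h, with 11 or 12 without a 0 h or 4 h array of either genotype. At 1 h, 0 members rose and 0 fell, against 3.85% and 6.62% of all genes, and 11 members had an unadjusted p under 0.05. These directions depend on the scale: with the housekeeping median as reference, 12 members rose and 3 fell at 2 h, and 59 rose and 0 fell at 4 h. That reference moved the median of all tested genes at 4 h to 0.62, against -0.12 on the deposited scale. The 3′ excess of Actb, a measure of RNA quality, moved with time as well. Actb signal at the 3′ end exceeded that at the 5′ end by 3.11, 2.61, 2.52 and 2.30 over 0, 1, 2 and 4 h in labelled knockout and 2.64, 2.35, 2.43 and 2.16 in wild type. The same excess for Gapdh had no steady trend, at 3.31, 2.95, 3.04 and 2.90 in labelled knockout and 3.01, 2.99, 3.16 and 2.98 in wild type. Genes on the cell marker lists moved with time too, and a change in such a gene does not count cells. Of the neutrophil list, 2 of 4 tested genes, S100a8 and S100a9, were higher at 2 and 4 h, beside 12.0% and 14.4% of all genes. Their summed linear level over 0, 1, 2 and 4 h was 1554, 1905, 2976 and 3988 in labelled knockout and 1378, 1495, 2499 and 3597 in wild type, with Elane at background on all arrays. Mesothelial and stromal markers fell for 4 of 8 genes between 1 and 2 h and rose for 3 of 8 between 2 and 4 h, with sums of 589, 737, 469 and 647 in labelled knockout and 1539, 1941, 1504 and 1996 in wild type. The sum of the resident peritoneal macrophage markers was 26782, 26706, 27574 and 27803 in labelled knockout and 7727, 8275, 10620 and 15299 in wild type. Its genes split by direction: at 4 h 2 of 10 were higher and 3 lower, with differences from -1.77 to 2.02. The part of RNA quality and of these markers in the LPS differences was not tested.

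Changes relative to all genes do not depend on how an array is centred. The median member lay 0.06, 0.07 and 0.10 log2 below the median gene at 1, 2 and 4 h. On the deposited scale, member changes were also small. At 4 h, 69 of the 80 members (86.3%) stayed within 1.5-fold of 0 h, as did 63.8% of all genes, and at 2 h it was 73 members (91.3%) and 66.4% of all genes. These sizes, unlike the changes relative to all genes, depend on the centring. With the housekeeping median as reference the median member stood at 0.52 at 4 h. Of the members lower at 2 or 4 h, 15 were lower at both times, 6 at 2 h and not at 4 h, and 4 at 4 h and not at 2 h.

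**Figure D1:**
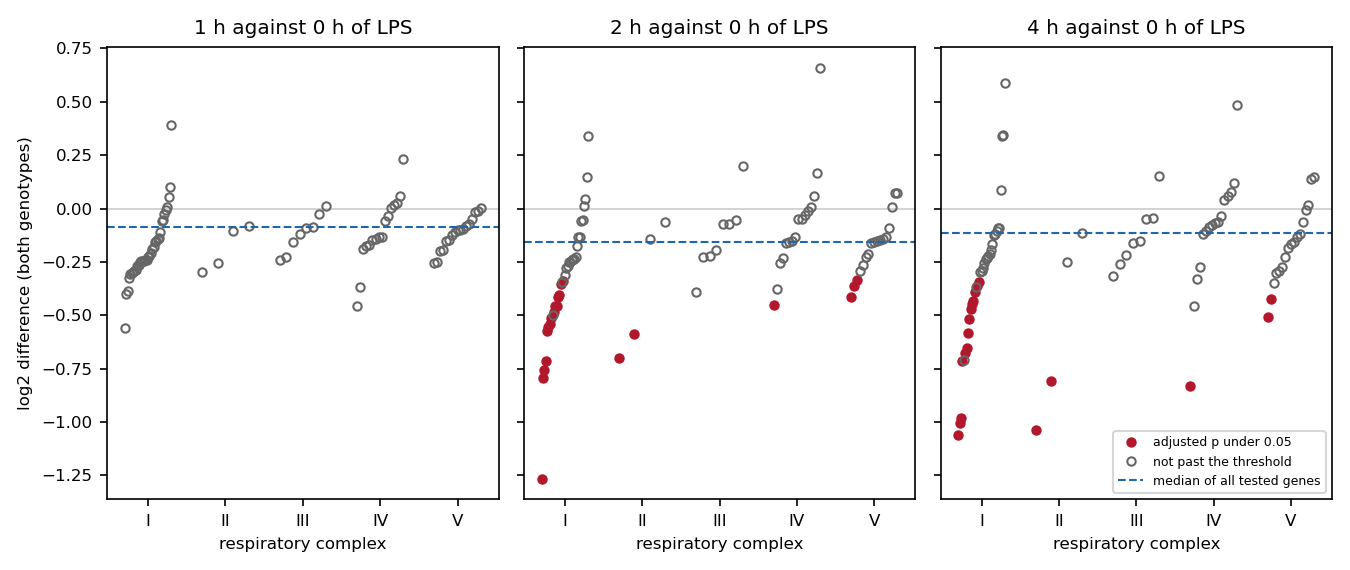
Log2 difference of 1, 2 and 4 h of LPS against 0 h on the deposited scale for each of the 80 tested members, over both genotypes, by respiratory complex (horizontal axis). Filled points passed an adjusted p under 0.05, open points did not, and the dashed line is the median of all 12540 tested genes; at 4 h the filled points are 14 in complex I, 2 in complex II, 1 in complex IV and 2 in complex V, and all lie below 0, while with the housekeeping median as reference 0 members fell and 59 rose.

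Complex I carried most of the calls. On the deposited scale, 15 of its 35 members (42.9%) fell at 2 h and 14 (40.0%) at 4 h, beside 29.8% and 29.4% of all genes, with medians of -0.31 and -0.29 against -0.16 and -0.12 for all genes. Its core subunits bear the electron path from NADH to coenzyme Q, and 6 nuclear ones were measured. Of these 5 (83.3%) fell at 2 h and 4 (66.7%) at 4 h.

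Ndufs8 and Ndufs7 carry iron-sulfur clusters close to where coenzyme Q binds. Ndufs8 read 9.69, 9.33, 8.87 and 8.50 at 0, 1, 2 and 4 h in labelled knockout and 10.04, 9.63, 9.35 and 9.11 in wild type. It was lower at each later time in both genotypes. At 4 h it was 2.08-fold lower (-1.06 ± 0.12 SE, adjusted p = 7.46e-04), or 0.94 below the median gene. Ndufs7 read 11.18, 10.81, 10.37 and 10.21 in labelled knockout and 11.48, 11.05, 10.70 and 10.49 in wild type. It too declined at every step, to 1.98-fold lower at 4 h (-0.98 ± 0.10, adjusted p = 4.81e-04). Ndufs7 was the single member to fall between 1 and 2 h (-0.40, adjusted p = 0.0377), where 7.71% of all genes rose and 14.6% fell, and leaving out any 1 array ended that call. Between 2 and 4 h, 0 members rose and 0 fell, against 11.3% and 9.72% of all genes, and 5 members had an unadjusted p under 0.05.

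Ndufv1, Ndufv2 and Ndufs1 belong to the part of the complex that takes up NADH, and Ndufs3 to the part that leads to coenzyme Q. Ndufv1, which binds NADH, read 10.26, 10.00, 9.80 and 9.71 in labelled knockout and 10.28, 9.95, 9.67 and 9.68 in wild type. Little changed after 2 h, and at 4 h it had fallen (-0.58 ± 0.10, adjusted p = 0.0049). Ndufv2 and Ndufs3 fell at 2 h (-0.49 and -0.46) and were at -0.37 and -0.26 at 4 h, where neither passed. Ndufs1, the large iron-sulfur subunit, passed at 4 h (-0.47 ± 0.11, adjusted p = 0.0152) and stood at -0.28 at 2 h. With the housekeeping median as reference, Ndufv1 and Ndufs1 lay at 0.15 and 0.26 at 4 h and did not pass.

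Accessory subunits surround this core, and 10 of 29 (34.5%) fell at 2 h and 10 at 4 h, a share near the 29.8% and 29.4% of all genes. Ndufa6, which docks the mitochondrial acyl carrier protein, read 9.55, 9.33, 8.72 and 8.28 in labelled knockout and 9.81, 9.44, 9.21 and 9.07 in wild type. Its 4 h difference was -1.01 ± 0.17 (adjusted p = 0.0043), and the drop was 1.27 in labelled knockout and 0.74 in wild type. Ndufa8, on the intermembrane face, fell by 0.68 and Ndufv3, at the NADH end, by 0.71 at 4 h. Ndufb10 of the membrane arm had the largest fall of any member at 2 h (-1.26 ± 0.29, adjusted p = 0.0157). It read 6.49, 6.34, 4.96 and 5.93 in labelled knockout and 7.12, 6.15, 6.12 and 6.27 in wild type, and the labelled-knockout array at 2 h was the lowest of the 8. Without that array, or without either 0 h array, the call was lost (adjusted p up to 0.101).

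Of the 35 complex I members, 4 lay above their 0 h value at 4 h. The largest was Ndufb1 at 0.59 ± 0.21 (adjusted p = 0.0619), which read 3.18, 3.28, 3.30 and 3.44 in labelled knockout and 3.44, 3.33, 3.61 and 4.36 in wild type. A single wild-type array stood out there. Ndufs4, an accessory subunit whose loss in mice causes a Leigh-like disease, was at 0.34 ± 0.11 (adjusted p = 0.0519), with 8.27 at 4 h in labelled knockout and 8.29 in wild type, against 7.86 and 8.01 at 0 h. Further Ndufs4 probe sets above background on all 8 arrays did not share a sign at 4 h. A bright one was at 0.21 and a dim one at -1.03, so the direction of Ndufs4 is not settled. Ndufa9 was at 0.09 and Ndufb4, above background on 3 of 8 arrays, at 0.34. None of the 4 passed the threshold.

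**Figure D2:**
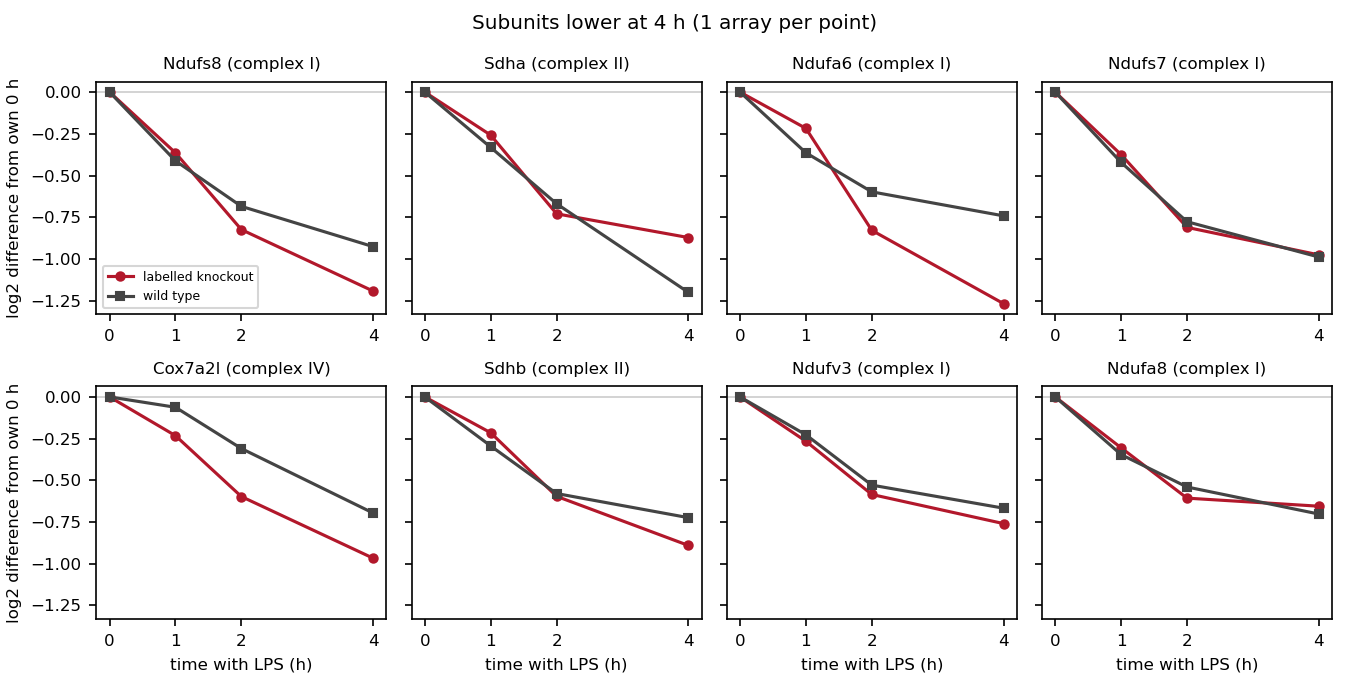
Log2 difference of each array from the 0 h array of its own genotype (vertical axis) over hours of LPS (horizontal axis), for the 8 members that fell at 4 h on the deposited scale with any 1 array left out, after cyclic loess and on the housekeeping mean and the median of all genes, as circles for labelled knockout and squares for wild type, 1 array per point. All lines lie below 0 from 1 h on, and the 4 h points of Ndufs8 stand at -1.19 in labelled knockout and -0.93 in wild type; with the housekeeping median as reference none of the 8 passed the threshold.

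Complex II was divided between its catalytic pair and its membrane anchors. Sdha, the flavoprotein that oxidises succinate, read 10.16, 9.91, 9.44 and 9.29 at 0, 1, 2 and 4 h in labelled knockout and 10.13, 9.80, 9.46 and 8.93 in wild type. The 4 h arrays of both genotypes lay below all their earlier arrays, and the difference was -1.04 ± 0.13 (2.05-fold lower, adjusted p = 0.0011). Sdhb, the iron-sulfur subunit, read 9.15, 8.93, 8.55 and 8.26 in labelled knockout and 9.30, 9.01, 8.73 and 8.58 in wild type. It was 1.75-fold lower at 4 h (-0.81 ± 0.11, adjusted p = 0.0016). Relative to the median gene, Sdha and Sdhb stood at -0.92 and -0.69.

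The anchors Sdhc and Sdhd, which hold the coenzyme Q site, did not pass. Sdhc read 6.80, 6.98, 6.69 and 6.61 in labelled knockout and 6.88, 6.54, 6.85 and 6.84 in wild type. Its 4 h difference of -0.11 ± 0.18 was close to that of the median gene. Sdhd read 9.96, 9.81, 9.61 and 9.42 in labelled knockout and 9.59, 9.52, 9.65 and 9.62 in wild type. The labelled-knockout arrays of this probe set declined and the wild-type ones did not, but the interaction of genotype with LPS did not pass (-0.35 ± 0.25, adjusted p = 1.00). A second Sdhd probe set read 6.89, 6.75, 6.62 and 6.62 in labelled knockout and 7.18, 6.73, 6.81 and 6.83 in wild type. It was lower after LPS in both genotypes, at -0.31 at 4 h, and its genotype difference was -0.17, against 0.11 for the one used. With the housekeeping median as reference Sdhc and Sdhd were higher at 4 h, at 0.62 and 0.48, while Sdha and Sdhb kept their sign at -0.30 and -0.07 without passing.

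Complex III was flat by comparison. Its 8 members ranged from -0.31 to 0.15 at 4 h, with a median of -0.16, and 0 of 8 passed. Uqcrfs1, the Rieske iron-sulfur protein, read 8.38, 8.44, 8.55 and 8.48 in labelled knockout and 8.31, 8.28, 8.54 and 8.52 in wild type. It was the one member of the complex above 0 at 4 h (0.15 ± 0.11, adjusted p = 0.31). The core proteins Uqcrc1 and Uqcrc2 stood at -0.15 and -0.05. Uqcrh and Uqcr10 were the members of smallest p, at -0.22 and -0.26 on the deposited scale and at 0.52 and 0.48 with the housekeeping median as reference.

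Complex IV, cytochrome c oxidase, had 1 call of 16 tested members (6.25%) at 2 h and at 4 h, beside 29.8% and 29.4% of all genes that fell, and both were Cox7a2l. Cox7a2l is known for joining complex III and complex IV into supercomplexes. It read 10.15, 9.91, 9.55 and 9.18 in labelled knockout and 10.28, 10.22, 9.97 and 9.59 in wild type. At 4 h it was 1.78-fold lower (-0.83 ± 0.12, adjusted p = 0.0019).

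The widely expressed subunits of complex IV lay near the median gene. Cox4i1 was at -0.28 ± 0.11 (adjusted p = 0.083), Cox6b1 at -0.12, Cox8a at -0.08, Cox7a2 at -0.06 and Cox6a1 at -0.04, and none passed. Ndufa4, first assigned to complex I and now placed in complex IV, was at -0.07. Cox7a2 ranged from 12.55 to 12.71 over the labelled-knockout arrays and from 12.64 to 12.82 over the wild-type arrays. With the housekeeping median as reference these genes were higher at 4 h, between 0.46 for Cox4i1 and 0.70 for Cox6a1.

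The restricted isoforms gave little signal. Cox4i2, Cox7a1, Cox8c, Cox6b2 and Ndufa4l2 were above background on 4, 7, 7, 6 and 5 of the 8 arrays, and Cox6a2, the heart and muscle form, lay between 3.58 and 4.55. None of the 6 tested passed at an LPS time. Cox8c read 3.63, 3.48, 4.22 and 3.67 in labelled knockout and 2.76, 3.37, 3.48 and 3.68 in wild type. The common forms Cox4i1, Cox6a1, Cox6b1, Cox7a2 and Cox8a were above background on every array.

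In complex V, 3 of 17 members (17.6%) fell at 2 h and 2 (11.8%) at 4 h, below the 29.8% and 29.4% of all genes. Atp5c1, the gamma subunit of the rotor, read 10.56, 10.29, 10.21 and 10.01 in labelled knockout and 10.54, 10.29, 10.21 and 10.07 in wild type. The genotypes were nearly identical at each time, and the 4 h difference was -0.51 ± 0.10 (adjusted p = 0.0076). Atp5d, the delta subunit of the same rotor, was at -0.43 ± 0.11 (adjusted p = 0.0206). Atp5b, the catalytic beta subunit, was at 0.15, Atp5a1, the alpha subunit, at -0.29 and Atp5g3, which encodes the c subunit of the ring, at -0.01, and none of these passed. With the housekeeping median as reference Atp5c1 and Atp5d were at 0.23 and 0.31, so their direction is not settled by these arrays.

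**Figure D3:**
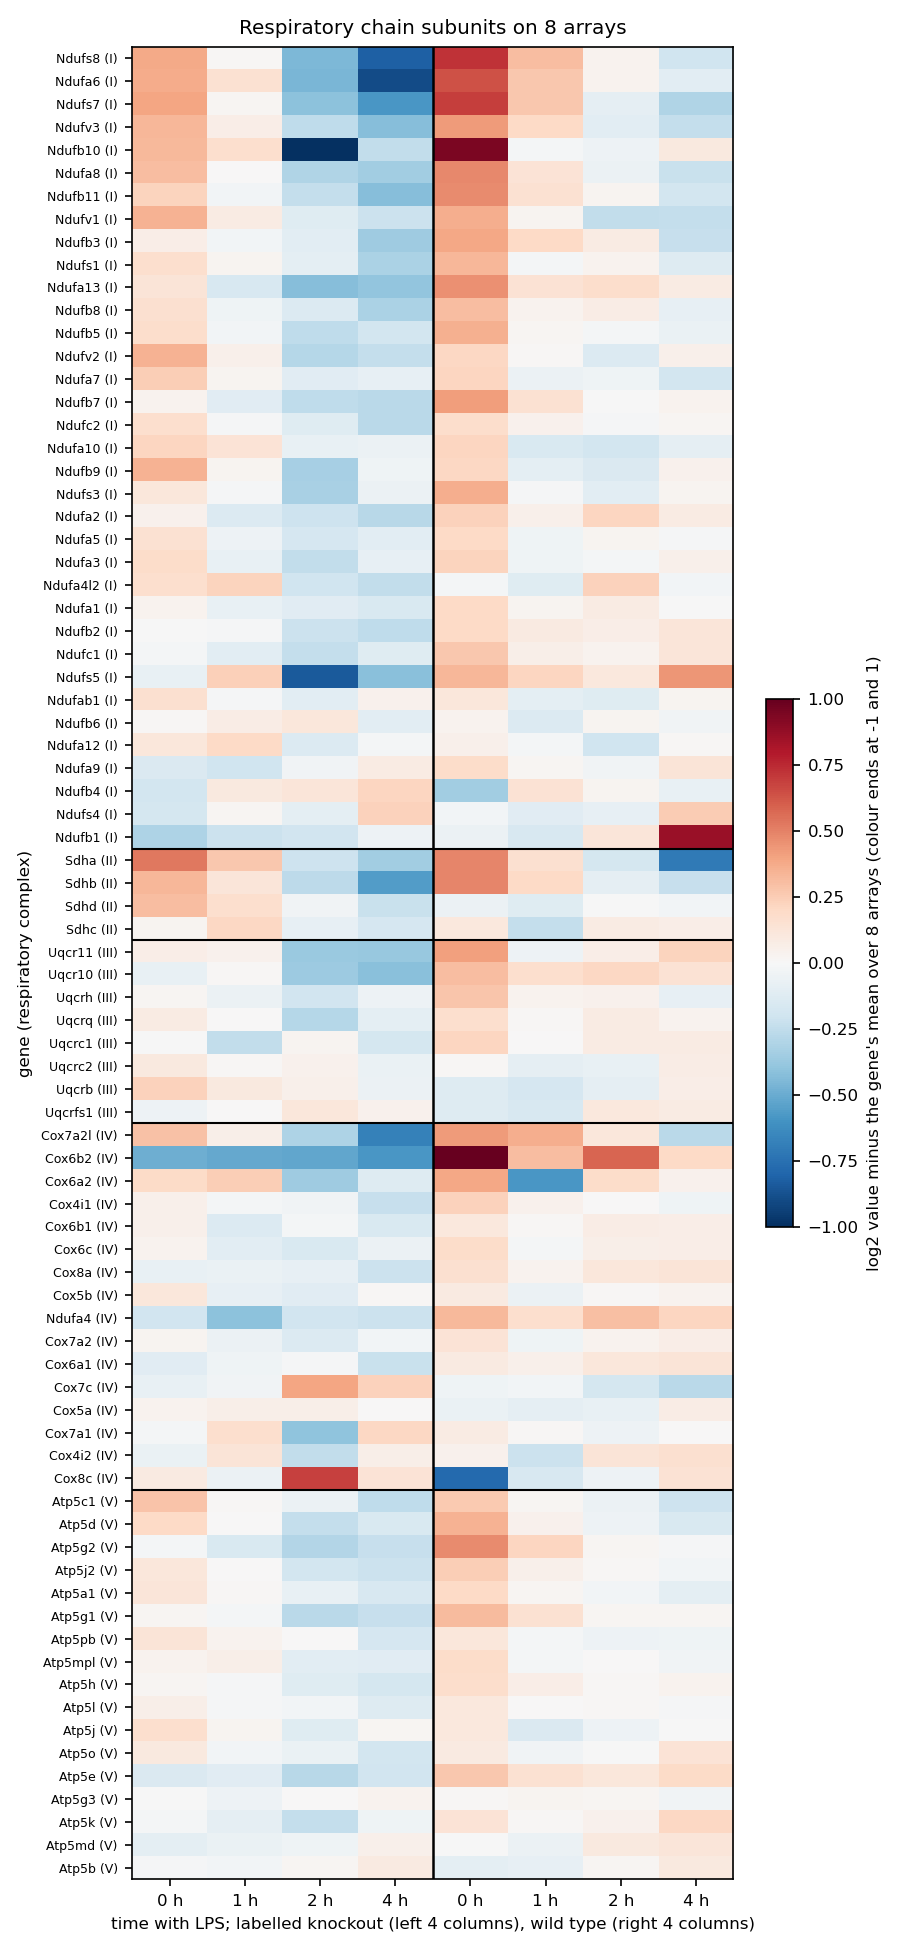
Log2 value of each of the 80 tested members (rows, with the complex in brackets) on the 8 arrays (columns, labelled knockout left and wild type right, 0 to 4 h of LPS), less the gene's mean over the 8 arrays; colour ends at -1 and 1. The top rows of complex I and the Sdha and Sdhb rows turn blue with time in both genotypes on the deposited scale, where 19 members fell at 4 h, while with the housekeeping median as reference 0 fell and 59 rose.

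Between genotypes, averaged over the 4 times, 9 members were lower in labelled knockout and 0 were higher. Among all genes 8.72% were lower and 4.75% higher, so the 11.3% of members that were lower is close to the background. Cox6b2 passed the filter on low values only through its wild-type arrays, which favours a difference, so its call supports nothing. Of the others, Ndufa4 was the member whose call survived every scaling tried. The remaining 7 were Ndufs8, Ndufa13, Ndufb7 and Ndufs7 of complex I, Uqcr10 of complex III, and Atp5e and Atp5g2 of complex V, and none of these passed when the arrays were centred on the median of all tested genes. The median member difference was -0.12, against -0.04 for all genes, and 79 of 80 members were within 1.5-fold.

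Ndufa4 read 7.69, 7.47, 7.69 and 7.66 over 0, 1, 2 and 4 h in labelled knockout, against 8.20, 8.05, 8.18 and 8.09 in wild type. The groups did not overlap, and on the deposited scale LPS hardly moved either. With the housekeeping median as reference, Ndufa4 lay above its 0 h level at 2 and 4 h. The genotype difference was -0.50 ± 0.07 (1.42-fold lower, adjusted p = 0.0104), and the call was lost without either 0 h array (adjusted p up to 0.0563). Cox6b2, a testis-restricted form of Cox6b1, read 3.18, 3.16, 3.15 and 3.09 in labelled knockout, against 4.69, 3.98, 4.25 and 3.87 in wild type. Its labelled-knockout arrays at 2 and 4 h were at background and those at 0 and 1 h just above it, so no exact size of the difference can be given.

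The remaining calls were smaller. Ndufs8 was at -0.43 ± 0.09 (adjusted p = 0.0256) and Ndufa13, an accessory subunit also known as Grim-19, at -0.43 ± 0.09 (adjusted p = 0.0265). Ndufa13 read 10.95, 10.67, 10.40 and 10.43 in labelled knockout, against 11.28, 10.97, 11.00 and 10.90 in wild type, and the groups overlapped. Uqcr10, a small subunit of complex III, read 7.91, 7.995, 7.62 and 7.56 in labelled knockout, against 8.29, 8.15, 8.19 and 8.12 in wild type (-0.42 ± 0.10, adjusted p = 0.0405). Those groups did not overlap. Atp5e, the epsilon subunit, was at -0.36, Atp5g2, another gene for the c subunit, at -0.34, Ndufb7 at -0.30 and Ndufs7 at -0.29. Atp5e, Atp5g2, Ndufb7 and Ndufs7 lost their calls without any 1 of the 8 arrays, and Ndufs8, Ndufa13 and Uqcr10 without 6 of them.

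**Figure D4:**
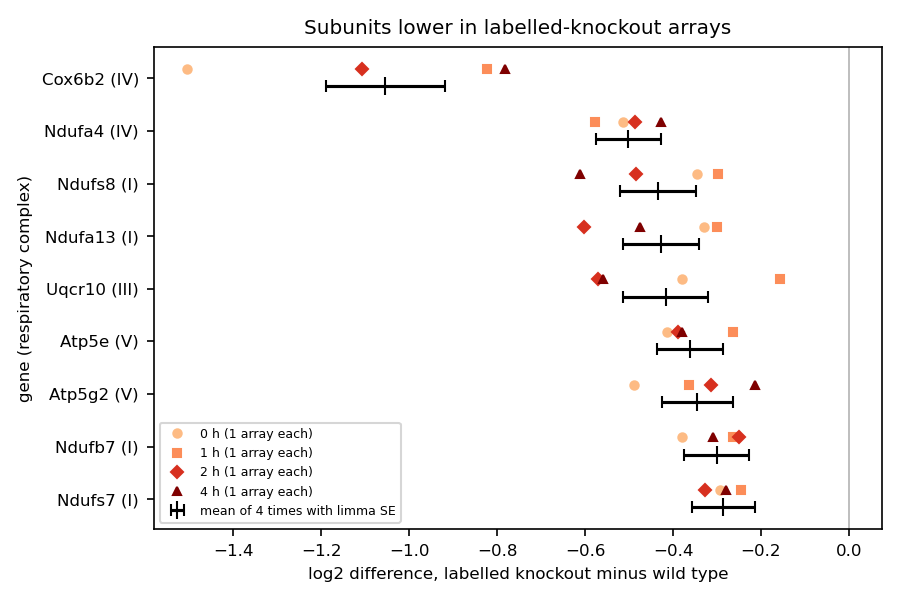
Log2 difference of labelled knockout minus wild type (horizontal axis) for the 9 members lower in labelled knockout on the deposited scale, with the complex in brackets. Coloured points are single times from 1 array each and black bars the mean of 4 times with limma's SE; Ndufa4 lies at -0.50, and Cox6b2, at -1.05, passed the filter only through its wild-type arrays and has 2 labelled-knockout arrays at background.

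By sign alone on the deposited scale, 43 of 80 members were below wild type at all 4 times and 1, Ndufab1, was above, where 24.5% and 14.8% of all genes were. Signs of differences this small depend on the centring. On the median of all tested genes the median member difference was -0.01, against -0.12 on the deposited scale. All 4 labelled-knockout arrays lay below all 4 wild-type arrays for 11 members and above them for 0, against 4.01% and 3.20% of all genes. Besides the dim Cox6b2 and the called Ndufa4, Uqcr10, Atp5e and Atp5g2, these were Ndufa2, Ndufb2, Ndufc1, Cox6a1, Cox8a and Atp5k. Of complex II, Sdha was at 0.12 ± 0.09 (adjusted p = 0.42) and Sdhb at -0.18 ± 0.08 (adjusted p = 0.17).

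The arrays of the genotypes also differed in cell markers and in the 3′ excess of Actb, a measure of RNA quality. Markers of resident peritoneal macrophages were higher in labelled knockout for 10 of 10 genes, and their summed linear level was 26706 to 27803 in labelled knockout and 7727 to 15299 in wild type. Mesothelial and stromal markers were lower for 7 of 8, with sums of 469 to 737 in labelled knockout and 1504 to 1996 in wild type, and Krt19 and Msln were at background on all arrays. B cell markers were higher in labelled knockout for 1 of 3 tested genes, Ighm (3.68), while Ms4a1 at 0.18 and Cd79a at -0.33 did not pass. Their sum, which Ighm carried, was 457 to 732 in labelled knockout and 80.7 to 88.1 in wild type, with Pax5 at background. Neutrophil markers were higher for 1 of 4, S100a9 (3.12), with sums of 1554 to 3988 in labelled knockout and 1378 to 3597 in wild type. The lowest of the 4 was at -0.12. T and NK cell markers were higher for 1 of 3 tested genes, with differences from -0.42 to 0.89. Eosinophil and mast cell markers were lower for 1 of 3, with differences from -1.44 to 0.19. The 3′ excess of Actb was 2.30 to 3.11 in labelled knockout and 2.16 to 2.64 in wild type. For Gapdh it was 2.90 to 3.31 in labelled knockout and 2.98 to 3.16 in wild type. The part of these in the genotype differences was not tested, and fewer cells of a type and less RNA per cell cannot be told apart.

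At single times the genotypes were set against each other with 1 array each and no test. At 0 h, 1 member was over 1.5-fold higher and 2 were lower, beside 5.02% and 7.31% of all genes. The higher one was Cox8c, whose wild-type array was below background, so its difference is not exact. The lower ones were the dim Cox6b2 at -1.51 and Ndufb10 at -0.62. At 1 h, 1 was higher and 1 lower, beside 5.10% and 4.70% of all genes, which were the dim Cox6a2 at 0.83 and Cox6b2 at -0.82. At 2 h, 1 was higher and 4 lower, beside 5.53% and 10.3%. Ndufb10 at -1.17, Cox6b2, which was at background in labelled knockout, and Ndufs5 at -0.95 led the lower ones, and Cox8c at 0.74 was the higher. At 4 h, 0 were higher and 6 lower, beside 4.54% and 7.83%, led by the dim Ndufb1 at -0.92, Ndufs5 at -0.86 and Ndufa6 at -0.79. The wild-type 4 h array of Ndufb1, at 4.36, stood above all its other arrays.

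Ndufs5, an intermembrane accessory subunit, read 6.28, 6.60, 5.51 and 5.94 in labelled knockout, against 6.69, 6.57, 6.46 and 6.80 in wild type. The arrays nearly coincided at 1 h and parted at 2 and 4 h. Over the 4 times the difference of -0.55 ± 0.17 did not pass (adjusted p = 0.0848). The interaction of genotype with LPS (1, 2 and 4 h together against 0 h) was higher for 0 and lower for 0 of 80 members in limma with 2 residual degrees of freedom, and for 0 and 0 percent of all genes. At an unadjusted p under 0.05 there was 1 member, Cox6b2, with its labelled-knockout arrays at or near background, and 434 genes in all.

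Other probe sets of the same genes were compared with the ones used. There were 63 further probe sets above background throughout, from 41 members. Of these, 54 had the sign of the one used at 4 h, 54 at 2 h and 46 for genotype. Most members were below 0 in each comparison, 67 of 80 at 4 h, 68 at 2 h and 63 for genotype. Signs would thus often be shared by unrelated probe sets too, and the share over all genes is not given, so these counts alone check little. The 5 others of Ndufs8 lay between -1.14 and -0.66 at 4 h, that of Ndufs7 at -0.89, and those of Cox7a2l at -0.97 and -0.85. A second one for Sdha was at -0.64, against -1.04 for the one used. For Sdhc the other was at 0.18, against -0.11, so the sign was not shared. The 2 others of Uqcr10 had genotype differences of -0.65 and -1.17.

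Genes that build and feed the chain moved in both directions. Of 43 assembly factors, 4 (9.30%) rose and 21 (48.8%) fell at 2 h, beside 12.0% and 29.8% of all genes. At 4 h, 8 (18.6%) rose and 12 (27.9%) fell, near the 14.4% and 29.4% of all genes. Between 2 and 4 h, 13 rose and 2 fell, beside 11.3% and 9.72% of all genes, with a list median of 0.37 beside 0.00 for all genes. The complex IV factors Cox18 and Sco1 rose at 4 h by 1.43 and 1.41, and Coa5 by 0.98. Bcs1l, which inserts the Rieske protein into complex III, fell by 1.24, and Ndufaf7, which methylates a complex I core subunit, fell by 1.91.

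Sdhaf1, which serves the iron-sulfur clusters of Sdhb, read 5.39, 3.99, 3.74 and 3.63 in labelled knockout and 6.13, 4.79, 4.36 and 4.35 in wild type. The first hour held most of the decline in both genotypes. Its differences were -1.37, -1.71 and -1.77 at 1, 2 and 4 h (adjusted p = 7.99e-04, 1.28e-04 and 6.25e-05), and its difference between labelled knockout and wild type was -0.72 ± 0.08 (adjusted p = 0.0033).

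Among 18 genes of cytochrome c and coenzyme Q, 3 (16.7%) rose and 4 (22.2%) fell at 4 h, beside 14.4% and 29.4% of all genes. In labelled knockout 2 (11.1%) were higher and 0 lower, beside 4.75% and 8.72% of all genes. Cycs, somatic cytochrome c, rose by 0.75 at 4 h and was higher in labelled knockout by 0.59 ± 0.07 (adjusted p = 0.0055). Of 19 genes of the TCA cycle and pyruvate entry, 2 (10.5%) rose and 8 (42.1%) fell at 4 h. Acod1, which makes itaconate, an inhibitor of succinate dehydrogenase, rose by 3.89, and Idh3g and Suclg2 fell by 1.13 and 1.48. In glycolysis, 4 of 17 genes (23.5%) rose and 7 (41.2%) fell at 4 h, with Hk2, a hexokinase, at 1.57 and Tpi1 at -1.31.

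Among 19 regulators of mitochondrial biogenesis, 5 (26.3%) rose and 5 fell at 4 h, beside 14.4% and 29.4% of all genes. Gabpa, the GABP subunit that binds the ETS core, rose by 1.52, and Gabpb1, its partner subunit, by 1.12. Mitochondrial ribosomal proteins were measured for 76 genes, of which 8 (10.5%) rose and 20 (26.3%) fell at 4 h, and between 2 and 4 h 14 (18.4%) rose and 0 fell, where 11.3% of all genes rose. Of 45 cytosolic ribosomal proteins 1 (2.22%) rose and 6 (13.3%) fell at 4 h. The counts in these lists rest on the deposited scale, and centring on the housekeeping median turned the split of all genes at 4 h to 63.8% higher and 9.93% lower.

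**Figure D5:**
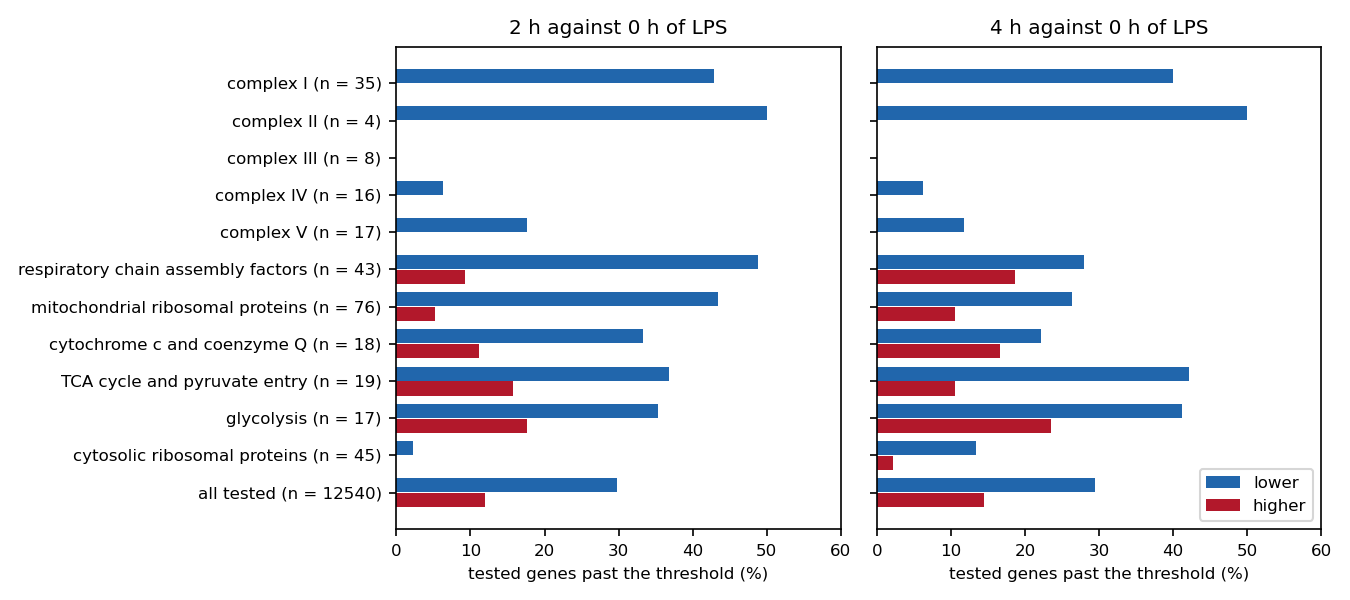
Share of tested genes (horizontal axis, percent) past the threshold at 2 and 4 h of LPS, lower in blue and higher in red, for the 5 complexes, 6 further lists and all tested genes, with the number tested in brackets. Complexes I to V have no red bar on the deposited scale, and all genes stand at 29.4% lower and 14.4% higher at 4 h; with the housekeeping median as reference all genes stood at 9.93% lower and 63.8% higher.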

How the data were processed

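RNA of the 8 samples was measured on Affymetrix 3′ arrays. Per the submitters' processing notes, the authors made the deposited log2 values with RMA, and no version of it was named. The table holds 45101 probe sets. RMA corrects background, normalizes by quantiles and summarises probes, which hides a change in total mRNA. The number of arrays limits the precision.

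From these values, probe sets with 1 gene symbol were kept, with 1 probe set per gene of highest mean. A gene was tested when the second-highest array reached 3.16, the median of all values, which left 12540 of 18193 genes. The highest of 27 bacterial control probe sets on an array was its background (2.96 to 3.26). An additive fit of time and genotype in limma 3.58.1 (R 4.3.3), with 3 residual degrees of freedom, gave the differences and moderated standard errors (SE). P-values were adjusted by Benjamini-Hochberg over all tested genes, with a threshold of 0.05. With 1 array per group, p-values measure the departure from additivity between these arrays, not the spread between animals. Fits were tested on simulated data.

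The members and all gene lists were chosen with earlier results of these data known. Genes named were, for each comparison, the 5 members of largest change each way past the threshold and the 2 of smallest p in each complex. To these were added the complex II genes, the restricted isoforms with their common forms, Ndufa4, the 3 largest differences each way at a single time, and the 3 of smallest p each way in each other list. Other genes named, among them core subunits, Uqcrfs1, Ndufs4, Atp5b and the list of members whose arrays do not overlap, were chosen after their values were seen. Alternatives were cyclic loess, housekeeping centring, other filters and probe set rules, trend and robust settings, a 1.5-fold minimum, other blocks and leaving out each array. Centring on the housekeeping mean and on the median of all tested genes was added after seeing the data.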

Additional observations from a re-analysis of the deposited data

How the results depend on the processing

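Among 2913 values of named members under the alternatives, 2701 were counted as unchanged, 142 lost the threshold, 51 gained it and 19 were counted as turned. All 19 turned under centring. Further values changed sign under centring without being among the 19, such as Sdhc and Sdhd at 2 h on the housekeeping median. More directions therefore depended on the centring than the 19 show. On the housekeeping median, Atp5c1 (0.0353), Cox6b1 (0.32) and Ndufa4 (0.36) turned at 2 h. At 4 h Atp5c1 (0.23), Atp5d (0.31), Cox4i1 (0.46), Uqcr10 (0.48), Uqcrh (0.52), Sdhc (0.62), Sdhd (0.48), Cox6a1 (0.70), Cox6b1 (0.61), Cox7a2 (0.67), Cox8a (0.65) and Ndufa4 (0.67) did. On the median of all tested genes, Atp5c1 (0.0747), Cox6b1 (0.36), Cox8a (0.38) and Ndufa4 (0.40) turned at 2 h. Such centring shifts every gene by 1 amount. Of the 10 housekeeping genes, 5 fell at 4 h, Polr2a by 1.55 and Hprt by 0.78. Members lower in labelled knockout numbered 9, against 5 after loess, 5 on the housekeeping median, 2 on the median of all genes, 24 with trend and robust settings, 1 with a 1.5-fold minimum, 1 without time as a block, and 1 to 7 without 1 array; the lowest count came without either 0 h array. At 1 h, 1 rose on the housekeeping median, and the count that fell was 1 with the 75th percentile filter, the mean of probe sets or without shared probe sets (suffixes _s_at, _x_at and _a_at), 11 with trend and robust settings, and 0 to 1 without 1 array. At 2 h the 21 lower were 3 on the housekeeping median, 4 on its mean, 2 on the median of all genes, 10 without shared probe sets, 35 with trend and robust settings, 6 with the 1.5-fold minimum, 7 without genotype as a block, and 5 to 17 without 1 array; the count was 5 without the labelled-knockout 0 h or 2 h array, 6 without the wild-type 0 h array and 8 without the wild-type 2 h array. The 0 higher at 2 h were 12, 5 and 14 under those 3 centrings, and 1 with the mean of probe sets, without shared probe sets, and with trend and robust settings. At 4 h the 19 lower were 0, 8 and 9 under the centrings, 12 without shared probe sets, 33 with trend and robust settings, 9 with the 1.5-fold minimum, and 11 to 19 without 1 array; without a 0 h or 4 h array of either genotype it was 11 or 12. The 0 higher at 4 h were 59, 11 and 9 under the centrings, 2 after loess, 1 with the 75th percentile filter, 1 with the mean of probe sets, 2 with trend and robust settings, and 0 to 1 without 1 array. Between 1 and 2 h, the 1 lower was 0 under all 3 centrings, with the 1.5-fold minimum and without genotype as a block, 5 with the 75th percentile filter, 8 with trend and robust settings, and 0 to 2 without 1 array, and 2 were higher on the median of all genes. Between 2 and 4 h, the 0 higher were 35 and 1 on the housekeeping median and mean, 1 with the 75th percentile filter and 0 to 1 without 1 array, and the 0 lower were 1 on the median of all genes, with that filter, with the mean of probe sets and without shared probe sets, and 5 with trend and robust settings. At single times, loess gave 1 lower at 0 h, 2 higher at 2 h and 1 higher at 4 h, and the housekeeping median 2 higher at 2 h. At 2-fold, 0 were higher at 0, 1 and 2 h, and 1, 0, 2 and 0 were lower at 0, 1, 2 and 4 h. The cause of these shifts was not tested beyond the fewer arrays or genes that some settings use. No paired analysis was possible because each group had 1 array and the labels give no replicate numbers. The fit of a changed genotype difference could not be made without a 0 h array.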

Other observations

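Single genes of other mitochondrial lists turned between 2 and 4 h of LPS. Between those times, Idh2, the mitochondrial NADP-linked isocitrate dehydrogenase, rose by 2.52, while at 2 h against 0 h it fell by 2.15, and Polrmt, the mitochondrial RNA polymerase, rose by 1.43, while at 2 h it fell by 2.07. The TCA cycle list that holds Idh2 had 1 gene higher and 2 lower of 19. Tfb1m, a mitochondrial rRNA methyltransferase, rose by 1.33, while at 2 h it fell by 1.48. Between genotypes, Mpc1, a subunit of the mitochondrial pyruvate carrier, was lower in labelled knockout, with a difference of -0.67 ± 0.12 (limma adjusted p = 0.0172), and Coq5, a coenzyme Q methyltransferase, was higher, by 0.75 ± 0.08 (adjusted p = 0.0036).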
